A study of Homo sapiens with 2 samples.

Results

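The 9 genes STAT2, IRF1, IRF7, IRF9, IFIT1, IFIT3, ISG15, MX1 and CD274 were chosen by name as genes of the interferon response together with the gene of PD-L1, out of 20037 protein-coding genes on chromosomes 1 to 22, X and Y. Earlier results of these data were known when they were chosen, so setting their counts beside the shares of all genes is not a test. At each of the 9 genes, the RUNX2 and MTA1 peaks inside the gene or within 20 kb of it were collected. The peaks came from untreated MDA-MB-231 cells, an established human line of triple-negative breast cancer, profiled by CUT&Tag, in which an antibody directs a transposase to the chromatin around its target. There was 1 library with an antibody against the transcription factor RUNX2 and 1 with an antibody against MTA1, a subunit of the NuRD remodelling and deacetylase complex. No value below therefore has a replicate or a test, and a control library was not used here. On these chromosomes there were 61700 RUNX2 and 42683 MTA1 peaks. Sequencing depth is unknown, so where no peak is listed the signal may have been weak as well as absent.

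Many interferons are secreted by cells that sense viral or misplaced nucleic acid. Interferon receptors activate JAK kinases and STAT proteins. STAT2 and IRF9 are subunits of the factor ISGF3, which switches on antiviral genes through the interferon-stimulated response element (ISRE). Interferon gamma acts at the gamma-activated site (GAS) and through the factor IRF1. PD-L1, the product of CD274, is a surface ligand that restrains T cells and is itself induced by interferon.

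The lists met at the starts of most of these genes. An MTA1 peak lay within 3 kb of an end of 9 of the 9 genes, and a RUNX2 peak of 8. The exception was MX1. Over all protein-coding genes these shares were 59.1% for MTA1 and 59.9% for RUNX2. Both lists had such a peak at 8 of the 9 genes, against 51.9% of all. Strength varied widely among the 9 genes. STAT2 and IRF1 carried peaks near the top of both lists, whereas the RUNX2 peak at CD274 had a score close to the bottom of its list.

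The RefSeq promoter table (GRCh38.p14) matched 8 of the 9 genes, all but IRF7. Each promoter window runs from 250 bases before the start to 50 after it. Windows at the outermost start are shown for 6 genes, 5′ to 3′ on the gene's strand, because their peaks differ most. Capitals mark matches on either strand to the RUNX core (letters TGTGGT), to the ISRE core (GAAA, any 2 bases, then GAAA again) or to the GAS letters (TTC, any 3 bases, then GAA). STAT2 (chr12:56360058-56360357, minus strand) and IRF1 (chr5:132490724-132491023, minus strand) carried the strongest peaks. ISG15 (chr1:1013247-1013546, plus strand) had its ISRE under both peaks. MX1 (chr21:41420308-41420607, plus strand) had MTA1 peaks only. IFIT1 (chr10:89392373-89392672, plus strand) had an MTA1 peak in the window and a RUNX2 peak past it, and these did not overlap. CD274 (chr9:5450292-5450591, plus strand) had a RUNX2 peak with a score close to the bottom of its list.
STAT2: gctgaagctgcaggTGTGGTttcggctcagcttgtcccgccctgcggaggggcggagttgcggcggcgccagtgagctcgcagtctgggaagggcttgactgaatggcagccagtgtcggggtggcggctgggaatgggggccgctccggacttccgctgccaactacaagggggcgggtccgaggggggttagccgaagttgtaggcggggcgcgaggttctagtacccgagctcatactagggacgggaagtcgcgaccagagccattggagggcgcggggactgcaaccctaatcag
IRF1: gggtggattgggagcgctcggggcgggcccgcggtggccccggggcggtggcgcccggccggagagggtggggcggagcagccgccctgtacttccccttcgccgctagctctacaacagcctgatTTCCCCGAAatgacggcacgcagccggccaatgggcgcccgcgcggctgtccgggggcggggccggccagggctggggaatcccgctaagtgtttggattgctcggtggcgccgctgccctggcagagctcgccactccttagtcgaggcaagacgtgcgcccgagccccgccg
ISG15: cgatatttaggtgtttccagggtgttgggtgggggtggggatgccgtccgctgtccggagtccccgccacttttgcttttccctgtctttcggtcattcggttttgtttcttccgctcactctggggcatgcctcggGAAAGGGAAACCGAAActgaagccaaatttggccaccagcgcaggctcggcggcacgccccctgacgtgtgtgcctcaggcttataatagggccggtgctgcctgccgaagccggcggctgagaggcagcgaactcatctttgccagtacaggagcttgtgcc
MX1: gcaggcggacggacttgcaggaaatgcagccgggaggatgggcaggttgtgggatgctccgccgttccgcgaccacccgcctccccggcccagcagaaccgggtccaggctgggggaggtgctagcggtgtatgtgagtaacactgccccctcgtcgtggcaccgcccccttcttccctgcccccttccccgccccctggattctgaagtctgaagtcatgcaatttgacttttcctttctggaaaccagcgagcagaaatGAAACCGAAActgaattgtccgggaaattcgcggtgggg
IFIT1: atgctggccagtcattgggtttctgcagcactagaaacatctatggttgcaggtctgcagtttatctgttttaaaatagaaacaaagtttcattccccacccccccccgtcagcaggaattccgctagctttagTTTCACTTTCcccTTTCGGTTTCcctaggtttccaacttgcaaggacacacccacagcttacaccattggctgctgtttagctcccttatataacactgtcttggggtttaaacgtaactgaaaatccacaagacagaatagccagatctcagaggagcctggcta
CD274: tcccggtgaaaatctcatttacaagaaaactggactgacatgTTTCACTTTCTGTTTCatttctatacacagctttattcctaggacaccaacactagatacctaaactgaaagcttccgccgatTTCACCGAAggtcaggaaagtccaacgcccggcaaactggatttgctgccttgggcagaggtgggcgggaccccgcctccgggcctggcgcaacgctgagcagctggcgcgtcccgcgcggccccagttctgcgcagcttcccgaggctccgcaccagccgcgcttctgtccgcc
The ISRE core was present in the windows of ISG15, MX1, IFIT1, CD274 and IFIT3, and in 3.57% of the 35116 promoter windows of the genome. In ISG15, and likewise in CD274, its 2 matches overlap each other, and at the third start of MX1 an ISRE match overlaps GAS letters. The GAS letters were found in the windows of IRF1, IRF9 and CD274, at that start of MX1 and in 7.66% of all windows. The RUNX core was found in the window of STAT2 and at a downstream start of IFIT3, and in 13.1% of all windows. These shares count single windows of all gene types, and MX1 and IFIT3 have several windows each. Over windows of protein-coding genes they were 3.17% (ISRE), 6.79% (GAS) and 11.3% (RUNX core). A match is a match of letters and does not show a bound site.

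Among the transcription factors that carry the interferon signal, STAT2 is the subunit of ISGF3 that holds the activation domain. Its RUNX2 peak at chromosome 12, 56360060 to 56360557, was centred 201 bp before the start and scored 53.8, above 98.9% of the RUNX2 list. The percentage of peaks of the same list with a lower score is called the rank below. The MTA1 peak at 56360171 to 56360611 had a score of 36.7 and a rank of 97.5%, and the peaks shared 387 bp. The RUNX2 peak covered 298 of the 300 bases of the window, and the match to the RUNX core lay under both peaks. The neighbouring gene APOF ends close by, and the centre of the MTA1 peak was 177 bp from that end and 284 bp from the start of STAT2. A weaker RUNX2 peak of the narrowest width, 99 bp, lay inside STAT2 (56347402 to 56347500, rank 24.98%) and overlapped no MTA1 peak. A further overlapping pair, with ranks of 66.3% and 56.0%, lay at the near end of PAN2.

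IRF1, an activator induced by interferon gamma, had the most RUNX2 peaks of the set. There were 8 RUNX2 and 5 MTA1 peaks within 20 kb, and all 5 MTA1 peaks overlapped a RUNX2 peak. At the start, the RUNX2 peak (chromosome 5, 132490694 to 132491059, rank 93.4%) and the MTA1 peak (132490706 to 132491034, rank 94.3%) both covered the whole promoter window, including its GAS letters. Upstream of the start lay a group of 5 RUNX2 peaks centred between 5125 and 7108 bp away. The strongest of these, at 132497765 to 132497998, had a rank of 88.2% and overlapped an MTA1 peak of rank 79.5%. A weaker overlapping pair of the group had ranks of 57.2% for RUNX2 and 38.4% for MTA1. The strongest RUNX2 peak near IRF1 was not at the gene itself. It lay inside the long noncoding gene CARINH, at 132466512 to 132467075 with a rank of 96.1%, and the MTA1 peak within it ranked at 42.3%. A neighbouring CARINH pair had ranks of 93.8% for RUNX2 and 38.8% for MTA1.

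IRF7, the factor that amplifies the type I interferon response, and IRF9, the DNA-binding subunit of ISGF3, had end peaks of middle rank. At IRF7 a RUNX2 peak (chromosome 11, 615981 to 616155, rank 64.5%) overlapped an MTA1 peak (615876 to 616150, rank 60.2%) by 170 bp. A second MTA1 peak of the same score lay inside the gene at 615627 to 615757 and overlapped no RUNX2 peak. The strongest RUNX2 peak in the window of IRF7 ranked at 99.5% (628527 to 628866, score 64.0). It lay 12577 bp outside the gene and nearest to SCT, and the MTA1 peak within it ranked at 87.0%. Further overlapping pairs, with the RUNX2 rank first, lay at CDHR5 (91.5% and 78.3%) and PHRF1 (48.4% and 21.6%).

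At IRF9 the RUNX2 peak over the start (chromosome 14, 24161016 to 24161278) ranked at 57.8% and the MTA1 peak (24161004 to 24161302) at 76.1%. The RUNX2 peak lay wholly within the MTA1 peak. A narrow RUNX2 peak at 24166750 to 24166865 lay just past the far end of the gene and had no MTA1 peak with it. Its score of 6.87 was carried by 1450 RUNX2 peaks. Higher ranks were found at the neighbours of IRF9. The pair at the facing ends of PSME2 and RNF31 ranked at 94.0% and 92.8%, the next pair inside RNF31 at 92.3% and 89.95%, and the pair at EMC9 at 88.3% and 91.2%.

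**Figure D1:**
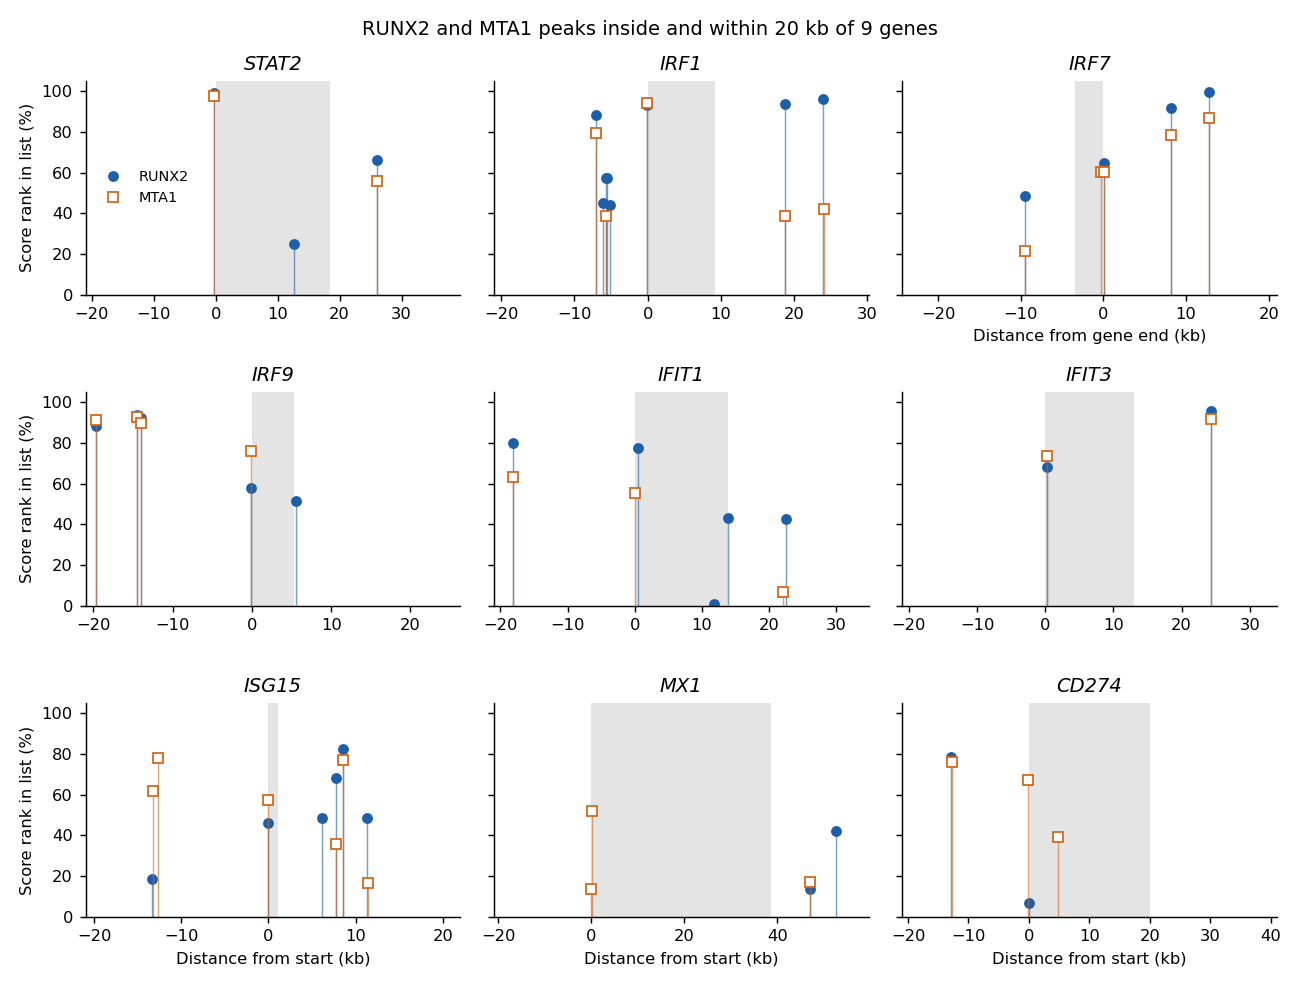
Each panel shows a gene (grey band) and the 20 kb on either side, with the distance of each peak centre from the start in kb on the x axis (for IRF7, from the end of higher coordinate, in the direction of rising coordinates) and the rank of its score within its own list in percent on the y axis. Blue circles are RUNX2 peaks and open orange squares MTA1 peaks. Peaks of both lists stand at the start of most genes, at ranks from 98.9% at STAT2 to 6.85% at CD274, and no RUNX2 peak stands at the start of MX1.

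Among the antiviral effectors, ISG15 encodes a ubiquitin-like protein that is conjugated to other proteins after interferon. Its RUNX2 peak (chromosome 1, 1013295 to 1013572) ranked at 46.0% and its MTA1 peak (1013259 to 1013590) at 57.6%. The RUNX2 peak lay within the MTA1 peak, and both covered the ISRE matches. ISG15 was the only gene of the 8 with a promoter window in which an ISRE match lay under a RUNX2 peak. Its surroundings held 6 peaks of each list, and the strongest RUNX2 peak among them (1021933 to 1022117, rank 82.4%) lay inside AGRN. The strongest MTA1 peak (1000622 to 1000932, rank 78.1%) was nearest to HES4. The MTA1 peak overlapping the strongest RUNX2 peak ranked at 76.9%. Further overlapping pairs, with the RUNX2 rank first, lay in AGRN (68.0% and 35.8%, 48.6% and 16.6%) and beside HES4 (18.8% and 61.8%).

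IFIT1 and IFIT3 encode proteins that bind viral RNA or the complexes formed on it, and both lie within the annotated span of LIPA. At IFIT3 the RUNX2 peak (chromosome 10, 89328137 to 89328427, rank 68.1%) was centred 285 bp after the start and overlapped the MTA1 peak (89327964 to 89328412, rank 73.6%). The ISRE matches of IFIT3 lay outside both peaks. At IFIT1 the MTA1 peak (89392547 to 89392706, rank 55.3%) was centred 3 bp after the start, while the RUNX2 peak (89393079 to 89393209, rank 77.4%) was centred 521 bp after it. These peaks did not overlap, and the ISRE matches lay outside both. Another 2 RUNX2 peaks near the far end of IFIT1, with ranks of 0.655% and 43.2%, had no MTA1 peak with them. The strongest peaks of IFIT1 formed its only overlapping pair, with ranks of 80.0% (RUNX2) and 63.4% (MTA1). They were centred 18140 and 18082 bp before its start, nearer to IFIT1B. The strongest pair of the locus lay beyond IFIT3, at 89352030 to 89352615 (RUNX2, rank 95.5%) and 89352036 to 89352630 (MTA1, rank 91.9%), and shared 580 bp. No peak was counted for both IFIT genes.

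MX1 encodes a dynamin-like GTPase that blocks influenza and other viruses. It had no RUNX2 peak inside it or within 3 kb of an end. Its MTA1 peaks at the start lay at chromosome 21, 41420341 to 41420456 (rank 13.5%) and 41420562 to 41420742 (rank 52.2%), and the second covered the ISRE match. The nearest RUNX2 peak (41467494 to 41467730, rank 13.8%) lay 8280 bp outside the gene, inside TMPRSS2, where it overlapped an MTA1 peak of rank 16.9%. The strongest RUNX2 peak in the window, also inside TMPRSS2 (41473018 to 41473200), ranked at 42.3%, the lowest such value among the 9 genes.

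Among the genes with end peaks of both lists, the RUNX2 and MTA1 end ranks lay furthest apart at CD274. Each rank is relative to its own list, and the lists differ in size, so this gap does not measure a difference in signal. The RUNX2 peak over its start (chromosome 9, 5450453 to 5450637) had a score of 3.67 and a rank of 6.85%. That score was shared by 3336 RUNX2 peaks. The MTA1 peak (5450364 to 5450519) had a score of 10.7 and a rank of 67.5%, and the peaks shared 67 bp. The GAS letters of CD274 lay under the MTA1 peak and outside the RUNX2 peak, and its ISRE matches lay outside both. An MTA1 peak inside the gene (5455323 to 5455453, rank 39.1%) had no RUNX2 peak with it and was 2043 bp from an end of the long noncoding gene INCR1. A stronger pair (RUNX2 rank 78.5%, MTA1 rank 75.9%) lay 12.7 to 12.9 kb before the start of CD274, at an end of PLGRKT.

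**Figure D2:**
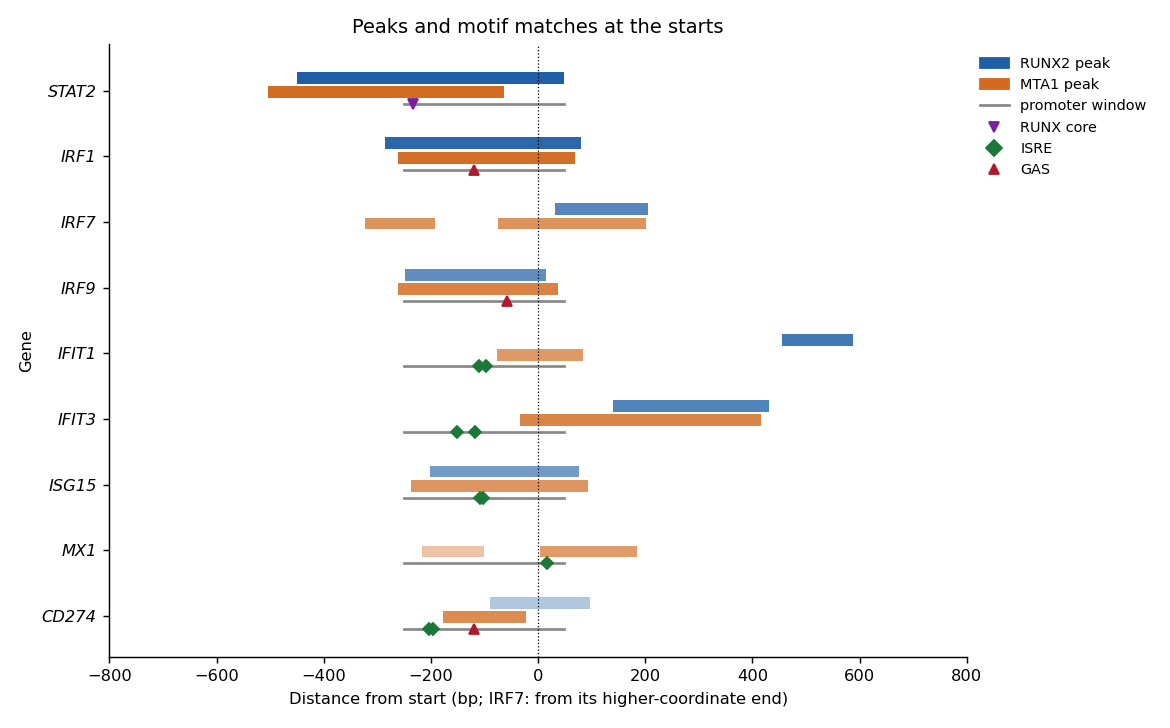
Peaks close to each start are drawn as bars (RUNX2 blue, MTA1 orange, darker for a higher rank) against the distance from the start in bp, for IRF7 from its higher-coordinate end. Grey lines are promoter windows, and symbols are matches to the RUNX core (purple), ISRE (green) and GAS (red). The MTA1 bars reach into all 8 windows and the RUNX2 bars into 5, with the ISRE under both bars at ISG15 alone.

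Counted in the promoter windows themselves, a measure chosen after the values were seen, an MTA1 peak was present in 8 of 8 genes and a RUNX2 peak in 5 of 8. Over the 15843 protein-coding genes with a window these shares were 48.4% and 44.9%. IFIT1, IFIT3 and MX1 had an MTA1 peak and no RUNX2 peak in the window, a combination found in 7.52% of all genes. All 3 hold an ISRE match, but so do ISG15 and CD274, which had peaks of both lists. At IFIT1 and IFIT3 a RUNX2 peak lay past the window, centred 521 and 285 bp after the start. The RUNX2 peak of IFIT3 overlapped its MTA1 peak. Both lists were present in the windows of STAT2, IRF1, IRF9, ISG15 and CD274, a combination found in 40.9% of all genes. None of the 8 genes lacked both lists in this window, as 47.6% of all genes did.

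The median end peak of the set ranked slightly below that of all genes in both lists. The rank of the strongest RUNX2 peak within 3 kb of an end ran from 6.85% at CD274 to 98.9% at STAT2, with a median of 66.3% over the 8 genes that had such a peak. For all 12005 protein-coding genes with a RUNX2 end peak the median was 71.5%. For MTA1 the ranks ran from 52.2% at MX1 to 97.5% at STAT2 with a median of 67.5%, against 74.8% over 11832 genes. In descending order of the RUNX2 rank came STAT2, IRF1, IFIT1, IFIT3, IRF7, IRF9, ISG15 and CD274. The order by MTA1 was STAT2, IRF1, IRF9, IFIT3, CD274, IRF7, ISG15, IFIT1 and MX1. STAT2 and IRF1 led in both, and with no replicate the neighbours in either order cannot be told apart beyond their spread. When each list was limited to its top 10000 peaks by score, STAT2 and IRF1 were the 2 genes with an end peak, in both lists. Of all protein-coding genes 17.9% had such a RUNX2 peak and 28.3% such an MTA1 peak.

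**Figure D3:**
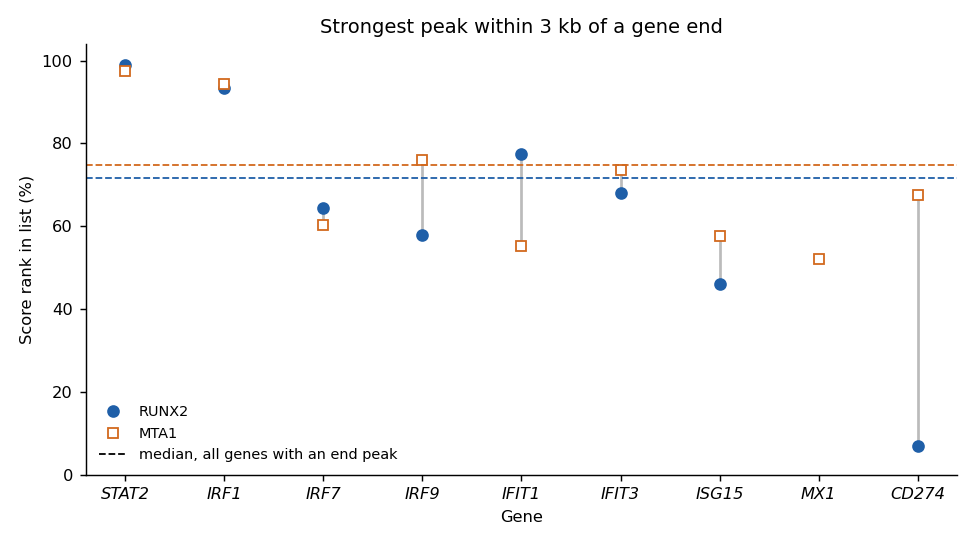
The y axis gives the rank, in percent of the list, of the strongest peak within 3 kb of an end of each gene (RUNX2 filled blue, MTA1 open orange), and dashed lines give the medians over all protein-coding genes with such a peak, 71.5% for RUNX2 and 74.8% for MTA1. STAT2 and IRF1 lie above both lines, and CD274 has ranks of 6.85% (RUNX2) and 67.5% (MTA1). Ranks of different lists are not on a common scale.

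Over the wider windows, all 9 genes had peaks of both lists inside or within 20 kb, which 84.4% of protein-coding genes had for RUNX2 and 79.7% for MTA1. All 9 also had an overlapping pair there, as did 71.0% of all genes, so these counts were near the background. The windows held 37 RUNX2 and 33 MTA1 peaks. Their number ran from 2 RUNX2 peaks at IFIT3, MX1 and CD274 to 8 at IRF1, and from 2 MTA1 peaks at STAT2 and IFIT3 to 6 at ISG15. The median numbers over all protein-coding genes, 3 RUNX2 and 2 MTA1 peaks, lay within these ranges. For the same number of peaks, a count per 10 kb is higher in a gene of shorter span. Per 10 kb searched, the median over the 9 genes was 0.922 RUNX2 peaks (range 0.254 to 1.63), against 0.357 over all protein-coding genes. For MTA1 it was 0.557 (0.342 to 1.46), against 0.248. Many of these peaks belong to crowded neighbourhoods: 21 of the 37 RUNX2 and 21 of the 33 MTA1 peaks had their centre nearer to an end of another gene than to one of the gene counted.

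Of the 37 RUNX2 peaks, 26 overlapped an MTA1 peak (70.3%, exact 95% interval 53.0% to 84.1%), against 45.4% of the whole list. In the other direction, 26 of 33 MTA1 peaks did so (78.8%, 61.1% to 91.0%), against 65.5%. The intervals cover counting error over peaks only, and neighbouring peaks are not independent. The whole lists are not matched to the peaks counted in rank or in distance from genes. The median rank of the peaks counted was 64.5% for RUNX2 and 61.8% for MTA1. Within 3 kb of the ends of the genes themselves the shares were 63.6% in each list, or 7 of 11 peaks (30.8% to 89.1%). Away from the ends they were 73.1% of 26 RUNX2 and 86.4% of 22 MTA1 peaks. Of these peaks away from the ends, 21 RUNX2 and 20 MTA1 peaks were nearer to an end of another gene. The RUNX2 peaks that overlapped no MTA1 peak numbered 11, and IFIT1 alone held 4 of them.

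The rest of the pathway was read from a list of 73 further genes. Within 3 kb of an end, 47 of them carried RUNX2, 46 carried MTA1 and 38 carried both, which is near the background of all genes. The counts by role rest on few genes each. JAK1, JAK2, TYK2 and STAT3 had end peaks of both lists in 4 of 4 genes. Of 9 sensors and adaptors, which detect nucleic acid and pass on the signal, 9 had an MTA1 and 7 a RUNX2 end peak. Of the 5 inhibitors, 5 had an MTA1 and 4 a RUNX2 end peak. The receptors had RUNX2 end peaks in 4 of 6 genes and MTA1 end peaks in 3. Among 28 further induced genes 16 had a RUNX2 and 16 an MTA1 end peak, and 8 had neither. Their shares of 57.1% in each list, and of 28.6% with neither against 32.95% of all genes, were near the background. Of 6 interferon genes, IFNL1 was the only gene with an end peak, a RUNX2 peak of rank 18.6%. No MTA1 peak lay within 20 kb of any of the 6. DNA copy number was not measured here, and whether missing DNA contributed to these low counts was not tested. Of 9 further checkpoint genes 7 had a RUNX2 and 5 an MTA1 end peak.

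The highest RUNX2 end ranks of the wider list were those of STAT3 (chromosome 17, 42388441 to 42388915, rank 99.4%), STING1 (chromosome 5, 139482170 to 139482830, rank 98.4%) and IFNGR2 (chromosome 21, 33401046 to 33401347, rank 96.7%). STAT3 carries signals of interleukin-6 and related cytokines, STING1 is the adaptor of cytosolic DNA sensing, and IFNGR2 is a receptor chain for interferon gamma. The highest MTA1 end rank was that of STAT3 (42388462 to 42388889, rank 99.7%). Next came SOCS3 (chromosome 17, 78360098 to 78360320, rank 95.02%) and SAMHD1 (chromosome 20, 36951657 to 36951938, rank 92.4%). SOCS3 is a feedback inhibitor of JAK signalling, and SAMHD1 is an enzyme that depletes nucleotides. The SOCS3 peak was centred 239 bp from an end of SOCS3-DT and 716 bp from an end of SOCS3. All 6 peaks overlapped a peak of the other list, and the 2 STAT3 peaks overlapped each other. Of the whole lists, 45.4% of RUNX2 and 65.5% of MTA1 peaks did so. The 6 peaks were picked for high rank, and the share among peaks of like rank was not computed. By the highest rank of each list within 20 kb, the genes of the wider list most like a gene of the set were JAK1 beside IRF9, SOCS3 beside IRF1 and IFI35 beside STAT2. Their distances over the 2 ranks were 0.887, 1.30 and 1.74 percentage points. This likeness did not extend to the gene ends of IFI35, which ranked at 24.4% (RUNX2) and 36.2% (MTA1), nor to those of JAK1, at 43.2% and 53.8%. The highest ranks counted for IRF9, 94.0% and 92.8%, were those of the pair at PSME2 and RNF31. Its own end ranks were 57.8% and 76.1%. For IRF1 the highest RUNX2 rank, 96.1%, lay in CARINH, and the highest MTA1 rank, 94.3%, at its start.

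**Figure D4:**
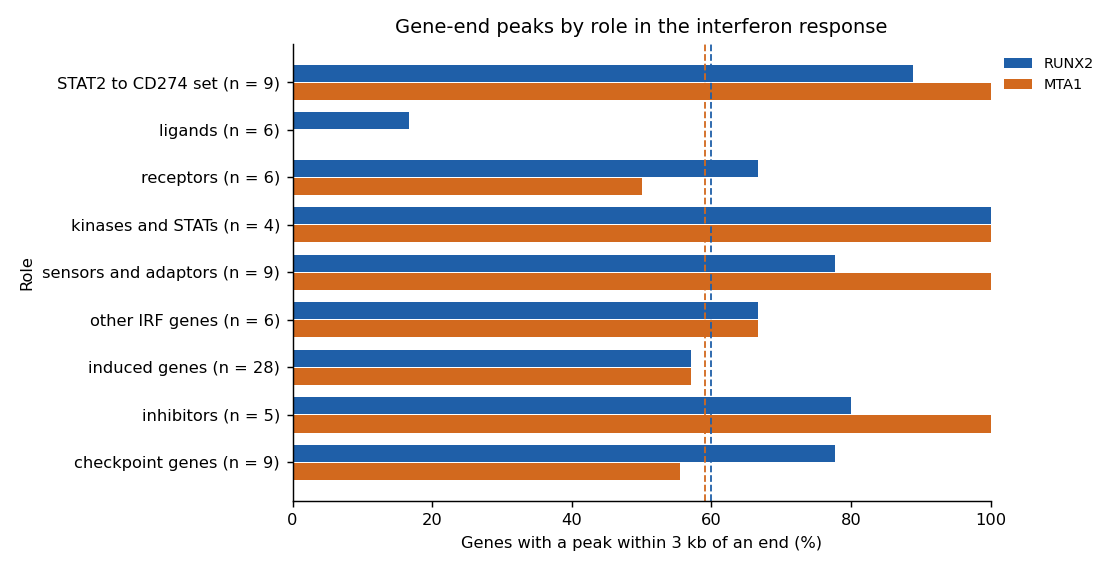
Bars give the percentage of genes in each role with a RUNX2 (blue) or MTA1 (orange) peak within 3 kb of an end, with the number of genes in brackets, and dashed lines give the share of all protein-coding genes (59.9% and 59.1%). Kinases and STATs reach 100% in both lists, and the ligands, the interferon genes themselves, stand lowest, with 16.7% for RUNX2 and no MTA1 peak. DNA copy number at the ligands was not measured.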

How the data were processed

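CUT&Tag libraries were made by the authors from MDA-MB-231 cells, 1 per antibody, and peaks were called in each library separately. The authors deposited 1 peak list per library, giving every peak a position and a score. What scale the score has is not given in the sources used here, so scores were compared only as ranks within a list. The submitters' processing notes name CASAVA 1.4, Bowtie 0.12.8, MACS and MACS2. The threshold is not given in the sources used here. Antibody suppliers differ between the labels and the study's methods, and the labels describe adaptor ligation, which is not usual for CUT&Tag.

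The labels name hg19, but the positions fit GRCh38. Peaks reach base 83203358 of chromosome 17 in the RUNX2 list, past the end of that chromosome in hg19. On the 8 chromosomes of the genes described, the share centred within 1 kb of a RefSeq start in GRCh38.p14 was 17.7% for RUNX2 and 24.9% for MTA1, against 3.09% and 3.00% after a move of 100 kb. Positions are 1-based.

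A peak was counted at a gene when it overlapped the gene or the 20 kb beside it, and at an end when it reached within 3 kb of an end on either side. Peaks overlapped when they shared at least 1 bp. Distances were measured to the outermost start. For genes with several starts, any promoter window counted. The interferon list and the rule for named genes (the strongest peak of each list, end peaks and overlapping pairs at the 9 genes, up to 6 positions per gene and list, and from the wider list the 3 highest end ranks per list and the 3 closest pairs), like the 9 genes themselves, were chosen with earlier results of these data known. Any other gene was named after its values were seen. The wider list leaves out 1 gene, which is not reported here. Peaks on mitochondrial DNA were left out. The alternatives were windows of 10 and 50 kb, 1 kb of an end, the start side alone, peaks from the median score upwards, the top 10000 peaks by score, peaks wider than the narrowest width, merging within 500 bp, overlap of 50% of both peaks, centres within 200 bp and, for the background, all annotated genes. The counting was tested on simulated data. No p-value was computed. Tools were matplotlib 3.10.9, scipy 1.17.1, numpy 2.4.6 and pandas 2.3.3 under Python 3.11.15.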

Additional observations from a re-analysis of the deposited data

Results flagged for a closer look

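Peaks on mitochondrial DNA, which entered no comparison, numbered 17 for RUNX2 and 15 for MTA1. They were singled out as signal outside the main measurement, and there was no control library to set beside them.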

How the results depend on the processing

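The limits are 1 library per antibody, an unknown depth and a score of unknown scale. Peaks of low score, such as that of RUNX2 at CD274, rest most on these. The promoter window was the only alternative chosen after seeing the data.

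With a window of 10 kb, 16 RUNX2 and 16 MTA1 peaks overlapped the other list, in place of 26 each. A window of 50 kb gave 73 RUNX2 and 60 MTA1 peaks, of which 51 and 49 overlapped. From the median score upwards there were 23 RUNX2 peaks, and 16 overlapped in each list. With the 10000 highest-scoring peaks there were 11 in each list, 9 of which overlapped. RUNX2 peaks then lay within 20 kb of 5 genes, overlapping pairs at 5, and end peaks at 2 genes for RUNX2, for MTA1 and for both. Promoter windows in place of 3 kb of an end gave 5 of 8 genes for RUNX2 and 5 for both. The background within 20 kb was 66.3% for RUNX2 and 57.8% for MTA1 over all annotated genes, and 38.5% and 47.9% with the 10000 highest-scoring peaks. Smaller windows and fewer peaks lower these counts by construction; why all annotated genes gave a lower background was not tested. The other 49 counts over the set stayed within 1.5 times of those reported, as did the backgrounds over all annotated genes. Of 126 values of single genes under the alternatives, 42 moved by more than 1.5 times, among them 17 with the 10000 highest-scoring peaks. With peaks wider than the narrowest width the only such move was the strongest RUNX2 rank at MX1, to 17.996%. No paired analysis was possible because each antibody has 1 library.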

Other observations

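Promoter windows with the ISRE core carried peaks less often than the others. Among 22199 windows of protein-coding genes, 703 held the ISRE core, and 26.9% of these overlapped a RUNX2 peak, against 37.9% of the windows without it. For MTA1 the shares were 32.9% and 40.9%. Base composition moved with this difference: the median GC content was 52.0% in windows with the ISRE core and 62.7% in the others, and its part in the result was not tested. Windows with the GAS letters had a RUNX2 peak in 31.7%, against 37.9% without them, and an MTA1 peak in 36.01%, against 41.0%. Windows with the RUNX core TGTGGT had a RUNX2 peak in 33.5%, against 38.0% of those without it, and an MTA1 peak in 31.0%, against 41.9%. Their median GC content was 56.7%, against 63.0%. A gene can have several windows, so these counts are not independent.

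Among the further induced genes, IFI44, RSAD2, CMPK2, GBP2 and CXCL10 had no peak of either list within 20 kb. These 5 of 28 genes are 17.9%, and 12.7% of all protein-coding genes had none. The neighbour of CD274, PDCD1LG2, encodes the related ligand PD-L2. It had end peaks with a RUNX2 rank of 60.6% and an MTA1 rank of 90.2%. CMTM6, which keeps PD-L1 at the cell surface, had end ranks of 74.3% for RUNX2 and 16.9% for MTA1, each within its own list. These genes were picked out after their values were seen.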
